A study of Mus musculus with 19 samples.

Results

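The change in RNA levels that accompanied the PML-RARA allele (PR) was examined in granulocyte-monocyte progenitors (GMP) that lacked Dnmt3a. The 4 arrays titled PR+/-, Dnmt3a-/- GMP were set against the 3 arrays of Dnmt3a-/- GMP without PR, so 7 of the 19 arrays of the series form the comparison, and 15781 genes were measured in all of them. The groups were taken from the sample titles. Both groups lack Dnmt3a on both alleles, and they differ by 1 PR allele. The series title is the source for reading PR as PML-RARA. The cells were sorted from mouse bone marrow. The series text gives C57Bl/6J as the background of the wild-type and Dnmt3a-/- mice, and the labels give no strain for the PR+/- mice. Age, the promoter that drives PR, the way Dnmt3a was deleted and whether each array stands for its own mouse are not given in the sources used here, so p-values measure the spread between these samples only. The other GMP arrays, 4 of wild-type GMP and 2 of PR+/- GMP with Dnmt3a, entered the same fit and served for the question of whether the change with PR differed when Dnmt3a was present. The PR+/- arrays form a set of their own with another style of title than the arrays without PR, and both differences with PR cross these sets. PR genotype and array set cannot be told apart in any value given here.

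PML-RARA joins the nuclear body protein PML to the retinoic acid receptor alpha. The fusion binds DNA at retinoic acid response elements, usually recruits corepressors there, and underlies acute promyelocytic leukaemia, in which granulocytic cells stop at the promyelocyte stage. DNMT3A adds methyl groups to unmethylated CpG sites and is often mutated in acute myeloid leukaemia. GMP give rise to neutrophils and monocytes, and closely related cells give rise to basophils, mast cells and eosinophils.

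Values are log2 array intensities, a gene's value being the mean over its probe sets, and changes are differences of such values between groups. The labels were first checked against Dnmt3a itself. Its level was 6.05, 6.26, 6.22 and 5.83 in PR+/- Dnmt3a-/- GMP replicates 1 to 4 and 6.06, 6.11 and 6.22 in Dnmt3a-/- GMP, against 7.07 and 7.20 in PR+/- GMP and 7.30 to 7.59 in wild-type GMP. All 7 arrays labelled Dnmt3a-/- were therefore below all 6 GMP arrays with Dnmt3a. The GMP enzyme Mpo lay between 12.62 and 12.97 in the 7 arrays. The mean of 7 measured GMP and granule markers, Mpo and Ctsg among them, was lower with PR, between 10.03 and 10.60 against 11.03 to 11.08 in Dnmt3a-/- GMP, and did not overlap. It was 10.90 to 10.96 in PR+/- GMP and 10.73 to 10.94 in wild-type GMP. Ctsg fell most of the 7 (-3.58) and was the 1 called. Prtn3 (-1.13), Fcgr3 (-0.81), Ms4a3 (-0.51) and Mpo (-0.19) were lower and Cd34 (0.59) and Kit (0.22) higher, without passing. The median level of 14 germline genes, 3.17, was taken as background. The mean of 4 B cell markers lay between 3.67 and 4.17 with PR and between 3.89 and 4.68 without it, and that of 5 stem cell markers between 4.11 and 4.34 against 4.43 to 4.94. The stem cell mean includes Hlf, a called fall. The part of the marker levels given here and beside the gene groups in the results was not tested.

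The 4 PR+/- Dnmt3a-/- arrays were not alike. Immediate early and heat shock genes (19 measured), which respond to handling of cells, had a mean level of 8.21 and 8.13 in replicates 1 and 2, of 5.93 and 5.96 in replicates 3 and 4, and of 6.31 to 6.52 in Dnmt3a-/- GMP. The wild-type GMP arrays, which entered the same fit, also differed, with 7.35 and 7.43 in replicates 1 and 2 and 6.20 and 6.17 in replicates 3 and 4. PR+/- GMP was at 6.18 and 6.02. None of these 19 genes passed the test, and their median change was 0.53, or -0.40 with replicates 1 and 2 left out. The Y-linked genes Eif2s3y and Kdm5d had a mean level of 6.75 to 7.01 in replicates 1, 3 and 4, of 3.12 in replicate 2 and of 2.54 to 2.91 in all 3 Dnmt3a-/- arrays. The Y-linked signal thus moved with the groups in all but 1 array. Both signals were added as covariates to the fit of the comparison, and the Y-linked level also to that of the interaction. Beyond that their part in the results was not tested.

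Of the 15781 genes, 195 (1.24%) passed an adjusted p of 0.05 (limma, Benjamini-Hochberg over all genes). Of these, 107 (0.678%) were higher and 88 (0.558%) lower with PR, and the unadjusted p was below 0.05 in 2381 genes. None of the 195 had overlapping groups. Of all genes, 2328 (14.8%) had groups that did not overlap. The size of the change among the 195 ran from 0.55 to 3.78 on the log2 scale with a median of 1.16, and the median change of all genes was 0.04. Adding the Y-linked level to the fit left 11 calls, 8 of which were also called without it, and 2418 had an unadjusted p below 0.05. The 195 genes all kept their direction in that fit, with a median of 0.97 of the original change and a standard error 1.38 times as large. The 8 genes were Abp1, Arhgef28, Grb10, Pdgfrb, Fn1, H2-Eb1, Lsp1 and Prss34. The handling level in its place gave 158 calls, 139 of them shared with the 195, and with replicates 1 and 2 of PR+/- Dnmt3a-/- GMP left out 50 passed, 44 of them shared. The count ran from 45 without Dnmt3a-/- GMP replicate 2 to 339 without PR+/- Dnmt3a-/- GMP replicate 3. It was 57 and 91 without Dnmt3a-/- replicates 1 and 3, and 98, 137 and 113 without PR+/- Dnmt3a-/- replicates 1, 2 and 4.

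**Figure D1:**
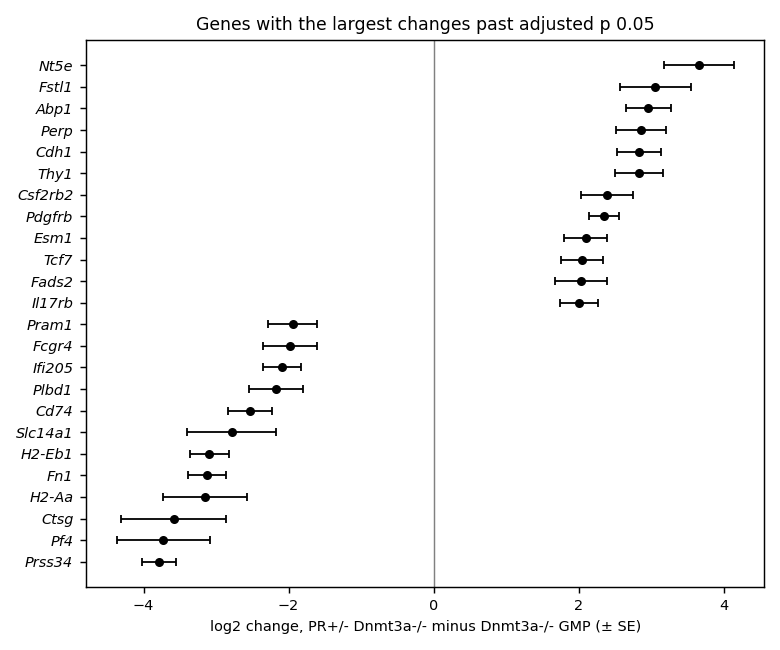
The log2 change (x axis, PR+/- Dnmt3a-/- minus Dnmt3a-/- GMP, with its SE as bars) of the 12 genes with the largest rise and the 12 with the largest fall past an adjusted p of 0.05, with at least 3 probe sets and a level of at least 5 in the higher group. Rises run from 2.001 (Il17rb) to 3.66 (Nt5e) and falls from -1.94 (Pram1) to -3.78 (Prss34).

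The largest rise among the named genes was that of Nt5e, and several others encode proteins of the cell surface. Nt5e, the ecto-5'-nucleotidase CD73, was at 9.10, 7.30, 6.25 and 7.72 in PR+/- Dnmt3a-/- replicates 1 to 4 and at 4.08, 3.96 and 3.76 in Dnmt3a-/- GMP. It was low in every array without PR and spread widely among those with it, and rose by 3.66 ± 0.48 (SE; 12.6-fold, limma adjusted p = 0.00309). Cdh1, the adhesion protein E-cadherin, was at 10.20, 9.18, 8.76 and 9.79 against 6.80, 6.88 and 6.27 and rose by 2.83 ± 0.30 (adjusted p = 7.69e-04). Thy1, a surface glycoprotein best known from T cells, was at 9.78, 8.91, 9.39 and 10.36 against 7.02, 6.61 and 6.72 and rose by 2.83 ± 0.33 (adjusted p = 0.00143). In these 3 genes every array with PR lay well above every array without it. Perp, a membrane protein and p53 target, rose by 2.86 ± 0.34, and the receptor tyrosine kinase Pdgfrb by 2.35 ± 0.21 with all 24 of its probe sets in that direction. Fstl1, a secreted glycoprotein, rose by 3.05 ± 0.49, Esm1, a secreted proteoglycan, by 2.09 ± 0.29, and Fads2, a fatty acid desaturase, by 2.03 ± 0.36. The probe sets annotated to Abp1 rose by 2.96 ± 0.31, but this older symbol is a synonym of both Aoc1 and Dbnl, and which of them they read is uncertain. Fstl1 did not pass when Dnmt3a-/- replicate 1 or 2 was left out (adjusted p up to 0.0541) nor Fads2 without any 1 of the 3 Dnmt3a-/- arrays (up to 0.0795). Abp1 and Pdgfrb were also called with the Y-linked covariate, and the other 7 of these genes were not.

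Thy1 and another lymphoid gene, Tcf7, were among the rises. Tcf7, a transcription factor of T cells and of progenitors, was at 8.43, 7.65, 6.76 and 7.70 against 5.35, 5.67 and 5.75 and rose by 2.05 ± 0.29 (limma adjusted p = 0.00560). Thy1 and Tcf7 were the 2 called genes among 12 T and NK cell genes, whose median change was -0.02, or 0.20 with the Y-linked covariate. The mean level of the 12 genes lay between 5.11 and 5.32 with PR and between 4.70 and 5.06 without it. The groups did not overlap in this mean, but it includes the 2 called rises. Only 5 of the 12 genes had a change above 0. Of the 5 marker genes of T and NK cells none was called. Cd3g and Klrb1c were on average at or under background, Cd8a lay between 3.34 and 4.54, Cd3e between 4.59 and 5.52 and Nkg7, which myeloid cells also express, between 11.33 and 12.16 over the 7 arrays. Their mean level lay between 5.10 and 5.53 with PR and between 5.07 and 5.44 without it.

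Cytokine receptor genes moved in both directions. Of 22 measured cytokine receptor genes, 2 rose, 1 fell and 19 did not pass, with a median of 0.12. Csf2rb, the shared beta chain of the receptors for GM-CSF, IL-3 and IL-5, was at 10.49, 10.09, 9.68 and 10.42 against 8.80, 8.74 and 8.83 and rose by 1.38 ± 0.19 (limma adjusted p = 0.00372). Csf2rb2, the IL-3 receptor beta chain of the mouse, was at 9.13, 8.30, 8.01 and 9.18 against 6.36, 6.55 and 5.89 and rose by 2.39 ± 0.36 (adjusted p = 0.00703). No array with PR was as low as any without it in either gene. Both genes are near-identical copies, so how much of each rise belongs to which copy is uncertain. Outside the list, Il17rb, a receptor chain for IL-25, was at 8.39, 7.73, 7.06 and 7.64 against 5.59, 6.04 and 5.48 and rose by 2.001 ± 0.264 (adjusted p = 0.00322). Chosen after their values were seen, the shared gamma chain Il2rg rose by 1.498 ± 0.207 and the growth factor Csf1, the ligand of Csf1r, by 1.78 ± 0.27.

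Basophil and mast cell genes moved in both directions. Of 16 measured, 4 rose, 2 fell and 10 did not pass, with a median of 0.37 (0.18 with the Y-linked covariate). Cpa3, the mast cell carboxypeptidase, was at 11.07, 11.002, 10.76 and 11.37 with PR and at 9.74, 9.28 and 8.82 without it, and rose by 1.77 ± 0.32 (limma adjusted p = 0.0166). Hdc, which makes histamine, was at 10.65, 10.15, 10.13 and 10.58 against 9.36, 9.39 and 9.40 and rose by 0.99 ± 0.16 (adjusted p = 0.00883). Every array with PR was above every array without it in both genes. Gata2, a transcription factor of stem cells, mast cells and basophils, was at 9.85, 9.60, 9.24 and 9.94 against 8.67, 8.54 and 7.998 and rose by 1.25 ± 0.27, and Il4, an interleukin made by basophils, rose by 0.93 ± 0.18 from a level of 4.56 to 4.87. Among 27 myeloid transcription factors the 2 called genes were Gata2 and Gfi1b, a repressor of erythroid and megakaryocytic cells, which rose by 0.96 ± 0.20. Calls of Gata2, Gfi1b and Il4 dropped out in 6 of the 7 leave-one-out fits (all but that without PR+/- Dnmt3a-/- replicate 3), with adjusted p up to 0.148, 0.179 and 0.118. Those of Cpa3 (up to 0.0834, without Dnmt3a-/- replicate 2 or 3) and Hdc (up to 0.0540, without replicate 1 or 2) were lost in 2 fits each.

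The fall in Prss34, a basophil serine protease, had the smallest p of all 15781 genes. Its level was 7.23, 8.09, 7.97 and 7.69 with PR and 11.60, 11.76 and 11.23 without it, a change of -3.78 ± 0.24 (13.8-fold lower, limma adjusted p = 7.64e-06). The arrays of each group lay close to each other, within a range smaller than the gap between the groups, and the call held in all 7 fits without 1 array and with the Y-linked covariate. Alox5, the 5-lipoxygenase of leukotriene synthesis, was at 6.30, 6.62, 7.04 and 6.54 against 7.72, 7.61 and 7.33 and fell by 0.93 ± 0.17 (adjusted p = 0.0198). Its call was lost in 4 of 7 fits, without Dnmt3a-/- replicate 1 or 2 or PR+/- Dnmt3a-/- replicate 1 or 4 (adjusted p up to 0.115). Of 16 leukotriene and prostaglandin genes, Alox5 and the thromboxane synthase Tbxas1 (-1.91 ± 0.30) fell and none rose. Tbxas1 did not pass without Dnmt3a-/- replicate 1 or 2 (adjusted p up to 0.0551). Fcer1a, the alpha chain of the IgE receptor, separated the arrays with PR: it was at 4.26 and 4.18 in replicates 1 and 2, at 7.54 and 7.73 in replicates 3 and 4, and at 8.51, 8.37 and 7.67 without PR (adjusted p = 0.20). The mean of 5 basophil and mast cell markers lay between 8.57 and 9.67 with PR and between 9.17 and 10.004 without it. Of these markers Prss34 (-3.78) and Fcer1a (-2.26) were lower. Cpa3 (1.77), the IgE receptor beta chain Ms4a2 (0.66) and the protease Mcpt8 (0.51) were higher. Only Prss34 and Cpa3 of them passed. With replicates 1 and 2 left out, 1 of the 16 genes was called (lower), and with the Y-linked covariate also 1.

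The promoters of Cpa3 and Prss34 are shown because these genes of 1 cell lineage changed in opposite directions. They are the 250 bases before the start site from RefSeq (GRCm38.p6), chr3:20242182-20242431 (- strand) and chr17:25298144-25298393 (+ strand), with the GATA factor motif AGATAA in capitals.
Cpa3: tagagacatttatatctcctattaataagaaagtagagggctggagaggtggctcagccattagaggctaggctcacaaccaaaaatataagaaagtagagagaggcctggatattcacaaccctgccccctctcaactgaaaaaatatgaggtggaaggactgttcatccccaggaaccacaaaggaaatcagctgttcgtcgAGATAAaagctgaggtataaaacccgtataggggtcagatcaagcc
Prss34: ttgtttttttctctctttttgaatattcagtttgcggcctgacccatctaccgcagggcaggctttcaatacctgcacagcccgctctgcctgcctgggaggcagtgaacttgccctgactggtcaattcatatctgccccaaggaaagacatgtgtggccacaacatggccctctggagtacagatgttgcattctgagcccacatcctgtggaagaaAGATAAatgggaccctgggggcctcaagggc
Each holds 1 match, 46 bases before the start site in Cpa3 and 31 bases before it in Prss34. Counted on both strands, the motif was in 9.72% of the 12609 measured genes with a promoter entry, in 8 of 84 genes called higher (9.52%) and in 9 of 69 called lower (13.04%). The retinoic acid receptor half-site AGGTCA was in 14.2% of these promoters, in 15.5% of those of genes called higher and in 24.6% of those of genes called lower. A match is a sequence only and was not tested for binding.

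**Figure D2:**
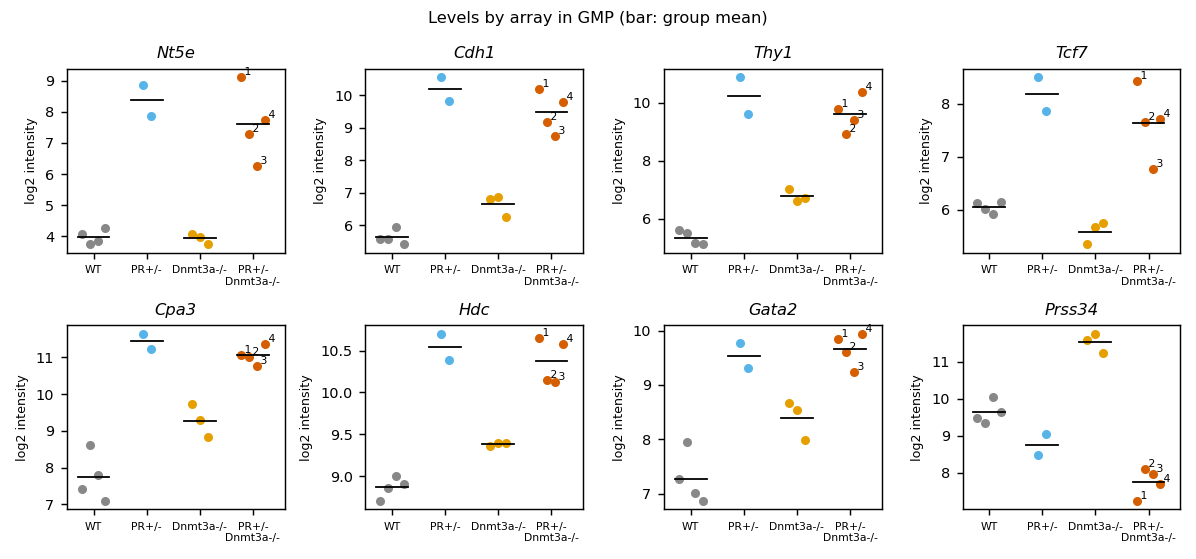
Log2 intensity (y axis) of 8 genes in each GMP array, grouped by genotype, with group means as bars and the replicate number beside each PR+/- Dnmt3a-/- array. In Cpa3, Hdc and Gata2 both PR+/- groups lie above both groups without PR, while Prss34 is highest in Dnmt3a-/- GMP (11.23 to 11.76).

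Several genes of antigen presentation by MHC class II fell with PR. Of 17 dendritic cell and MHC class II genes, 6 fell, 11 did not pass and none rose, with a median of -0.28. H2-Aa, a class II alpha chain, was at 5.11, 5.42, 6.30 and 5.95 with PR and at 8.64, 9.02 and 8.87 without it, and fell by 3.15 ± 0.58 (limma adjusted p = 0.0196). H2-Eb1, a class II beta chain, was at 4.88, 5.47, 6.20 and 5.58 against 8.35, 8.69 and 8.84 and fell by 3.09 ± 0.27 (adjusted p = 1.11e-04). Cd74, the invariant chain that accompanies class II molecules, was at 5.13, 5.97, 6.06 and 5.87 against 8.14, 8.29 and 8.42 and fell by 2.53 ± 0.30 (adjusted p = 0.00163). The 3 genes were highest in the same 3 arrays, and the gap between the groups was wider than the range within either. In wild-type GMP the level was 5.33 to 5.62 for H2-Eb1 and 5.20 to 5.69 for Cd74, and in PR+/- GMP it was 5.39 and 6.23 for H2-Eb1 and 4.59 and 6.05 for Cd74, so that the levels in PR+/- Dnmt3a-/- GMP overlapped those of both groups with Dnmt3a. H2-Ab1 fell by 1.91 ± 0.37, H2-DMa, which loads peptide, by 1.49 ± 0.32 and the dendritic cell lectin Clec9a by 1.58 ± 0.23. Clec9a was at 3.25 to 3.58 with PR, near background.

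The mean of 5 dendritic cell markers lay between 4.72 and 5.03 with PR and between 6.17 and 6.39 without it. This mean includes the 3 called falls of H2-Aa, Cd74 and Clec9a given above and is no separate result. The remaining markers of the mean, Siglech and Xcr1, did not pass. Siglech was at 3.95 to 5.10 with PR and 4.03 to 4.45 without it, and Xcr1 at 4.45 to 5.08 against 4.59 to 5.19. In bulk RNA, fewer cells of a type and less RNA per cell cannot be told apart. H2-Aa and H2-Ab1 dropped out in 5 of the 7 leave-one-out fits (adjusted p up to 0.0947 and 0.105), and held without PR+/- Dnmt3a-/- replicate 3 or 4. That of H2-DMa was lost in 5 (up to 0.154) and held without PR+/- Dnmt3a-/- replicate 1 or 3. With replicates 1 and 2 of PR+/- Dnmt3a-/- GMP left out 2 of the 17 genes were called, and with the Y-linked covariate 1, H2-Eb1. The median of the list was between -0.40 and -0.21 under all alternatives that were fitted.

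The promoters of H2-Aa and H2-Eb1 are shown as the pair of class II chains that fell together. The 250 bases before their start sites (RefSeq, GRCm38.p6) lie at chr17:34287824-34288073 (- strand) and chr17:34305617-34305866 (+ strand). Capitals mark CTGATTGG, the core of the Y box of class II promoters.
H2-Aa: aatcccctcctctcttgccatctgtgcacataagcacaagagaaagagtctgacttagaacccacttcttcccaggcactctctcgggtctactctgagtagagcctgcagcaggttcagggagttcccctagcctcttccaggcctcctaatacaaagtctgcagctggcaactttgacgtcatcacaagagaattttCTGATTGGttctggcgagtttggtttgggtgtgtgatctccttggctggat
H2-Eb1: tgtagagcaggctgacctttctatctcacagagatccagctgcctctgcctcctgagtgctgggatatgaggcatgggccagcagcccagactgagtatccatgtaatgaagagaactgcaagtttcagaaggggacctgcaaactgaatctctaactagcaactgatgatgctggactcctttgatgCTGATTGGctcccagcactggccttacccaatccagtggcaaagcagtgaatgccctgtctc
The motif begins 51 bases before the start site in H2-Aa and 62 bases before it in H2-Eb1. On both strands it was in 5.44% of the promoters of measured genes, in 3 of 84 (3.57%) of genes called higher and in 3 of 69 (4.35%) of genes called lower, so its share among the called genes was no higher than among all.

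A part of the monocyte genes fell as well. Of 20 monocyte and macrophage genes, 5 fell, 15 did not pass and none rose, with a median of -0.76. Ly86, also called MD-1, a partner of the toll-like receptor relative Cd180, was at 6.74, 7.13, 6.85 and 6.54 with PR and at 8.59, 8.78 and 8.62 without it, and fell by 1.85 ± 0.22 (limma adjusted p = 0.00168). Ctss, the lysosomal protease cathepsin S, was at 6.03, 6.36, 7.22 and 7.28 against 8.67, 8.83 and 8.43 and fell by 1.92 ± 0.29 (adjusted p = 0.00703). Csf1r, the receptor for M-CSF, was at 6.63, 7.15, 6.90 and 6.54 against 7.60, 7.71 and 7.51 and fell by 0.80 ± 0.17 (adjusted p = 0.0375). The groups did not overlap in these 3 genes, and the fall of Csf1r was the smallest of them. The inhibitory receptor Cd300a fell by 1.48 ± 0.27 and the lectin Clec4a1 by 1.11 ± 0.24. Irf8, the transcription factor that directs GMP towards monocytes, was at 5.58, 6.91, 6.85 and 5.54 against 7.79, 8.09 and 7.68, a change of -1.63 ± 0.37 that did not pass (adjusted p = 0.052). The monocyte genes F13a1 (-0.07 ± 0.16) and Ccr2 (0.02 ± 0.18) did not pass either.

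The mean of 6 monocyte markers lay between 6.99 and 7.58 with PR, between 7.98 and 8.26 without it, and between 8.94 and 8.99 in wild-type GMP. This mean includes the called falls of Ly86 and Csf1r. Calls of Cd300a (adjusted p up to 0.0913) and Clec4a1 (up to 0.215) were lost in 6 of 7 fits, all but that without PR+/- Dnmt3a-/- replicate 3. That of Csf1r was lost in 5 (up to 0.166) and held without PR+/- Dnmt3a-/- replicate 2 or 3. Ly86 and Ctss were called in all 7. With replicates 1 and 2 left out 2 of the 20 genes were called, and with the Y-linked covariate 0. Among called genes outside the lists, chosen after their values were seen, Irf5, a transcription factor of macrophage activation, fell by 1.05 ± 0.14, Lsp1, an actin-binding protein of leukocytes, by 1.28 ± 0.14 and Cd180 by 1.60 ± 0.26. Cd180 did not pass when Dnmt3a-/- replicate 1 or 2 was left out (adjusted p up to 0.0596).

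**Figure D3:**
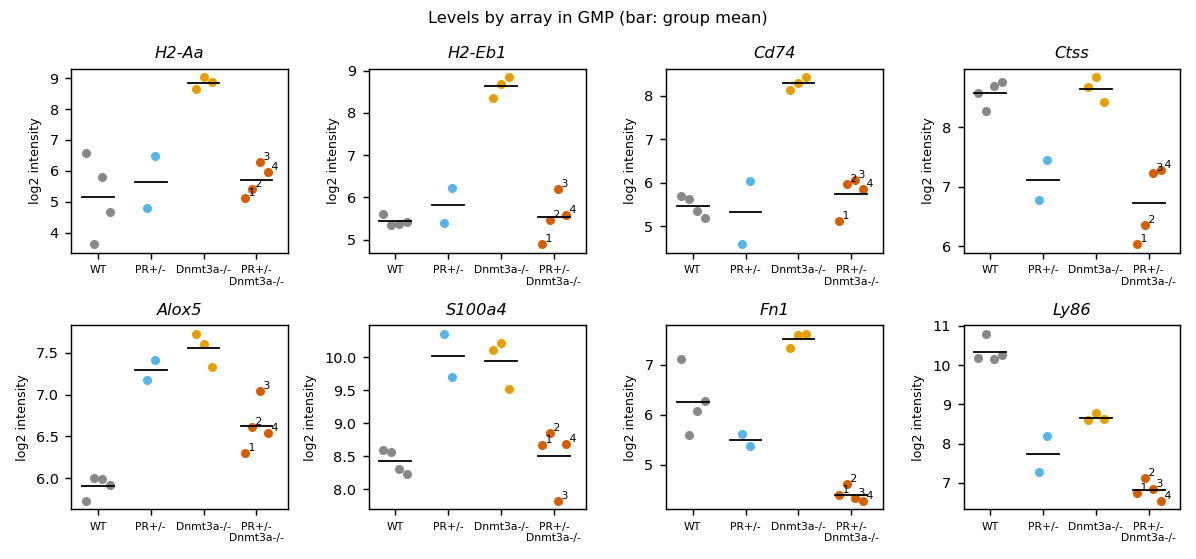
Log2 intensity (y axis) of 8 genes that were lower with PR in Dnmt3a-/- GMP, by array and genotype, with group means as bars. H2-Aa, H2-Eb1 and Cd74 are high in Dnmt3a-/- GMP alone among the 4 groups, whereas Ctss and Ly86 are lower in both PR+/- groups than in the group without PR of the same Dnmt3a genotype.

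Further large falls were seen in Fn1, Pf4 and Slc14a1, among others. Fn1, the matrix protein fibronectin, was at 4.39, 4.61, 4.33 and 4.28 with PR and at 7.34, 7.61 and 7.62 without it, and fell by 3.12 ± 0.26 (limma adjusted p = 1.11e-04), in 50 of its 51 probe sets. Both groups were tight in this gene, and its call held in all 7 fits without 1 array and with the Y-linked covariate. Pf4, platelet factor 4, was at 4.58, 4.86, 6.79 and 6.09 against 10.13, 8.82 and 8.97 and fell by 3.73 ± 0.64 (adjusted p = 0.0137). It was the 1 called gene of 15 megakaryocyte and platelet genes (median -0.39), and it did not pass when Dnmt3a-/- replicate 1 or 2 was left out (adjusted p up to 0.0858). The mean of 4 megakaryocyte markers, Pf4 among them, lay between 5.33 and 6.10 with PR and between 6.66 and 7.38 without it. Besides Pf4, Gp9 (-0.98) and Vwf (-0.39) were lower and Itga2b (0.34) higher, and none of these passed. Slc14a1, a urea transporter of erythroid cells, fell by 2.78 ± 0.61 but was called in only 1 leave-one-out fit, that without PR+/- Dnmt3a-/- replicate 3 (adjusted p up to 0.214). None of 15 erythroid genes was called, and the mean of 3 measured erythroid markers lay between 5.23 and 6.01 with PR and between 5.06 and 5.75 without it. The Fc receptor Fcgr4 fell by 1.98 ± 0.37, the granule protein Plbd1 by 2.17 ± 0.38, the adaptor Pram1, whose human counterpart was found as a target of PML-RARA, by 1.94 ± 0.34, and the interferon-inducible Ifi205 by at least 1.98 against background. With the brighter probe sets alone the change of Ifi205 was -0.60 (limma adjusted p = 0.445). The call of Fcgr4 was lost in 5 of 7 fits (up to 0.0972; held without PR+/- Dnmt3a-/- replicate 3 or 4), that of Pram1 without any 1 Dnmt3a-/- array (up to 0.0765) and that of Plbd1 without Dnmt3a-/- replicate 1 or 2 (up to 0.0862).

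The mean levels of both neutrophil granule lists were lower in all 4 PR+/- Dnmt3a-/- arrays than in all 3 Dnmt3a-/- arrays. The primary granule mean includes Ctsg, however. This gene was at 6.59 and 7.56 in replicates 3 and 4 with PR, against 11.80 to 11.95 in Dnmt3a-/- GMP. Whether the primary granule mean of replicates 3 and 4 stays lower with Ctsg left out was not tested. For secondary granule and maturation genes the mean was 7.92, 8.001, 8.69 and 8.64 in replicates 1 to 4 with PR and 9.87, 8.85 and 8.90 without it, and for primary granule genes 9.40, 9.68, 9.70 and 9.73 against 10.21, 10.21 and 10.27. Of 18 secondary granule and neutrophil maturation genes, 3 fell and 15 did not pass, with a median of -0.84, and of 11 primary granule genes 1 fell, with a median of -0.30 (-0.13 with replicates 1 and 2 left out and -0.51 with the Y-linked covariate). Chil3, a chitinase-like protein, was at 5.52 and 5.98 in replicates 1 and 2, at 8.89 and 8.25 in replicates 3 and 4, and at 10.61, 9.86 and 10.61 without PR, a fall of 3.20 ± 0.63 (limma adjusted p = 0.0277). With replicates 1 and 2 left out its change was -1.79 (adjusted p = 0.0149). Camp, the cathelicidin of secondary granules, was at 8.61 and 8.92 in replicates 1 and 2, at 11.24 and 10.99 in replicates 3 and 4, and at 12.05, 11.08 and 11.45 without PR, and did not pass (adjusted p = 0.20). The low arrays in both genes were those with high immediate early and heat shock genes. Prtn3, a protease of primary granules, and Prg2 and Epx, granule proteins of eosinophils, also had their lowest values in replicates 1 and 2 (Prtn3 9.998 and 10.29, against 11.59 and 11.06 in replicates 3 and 4), and none of them passed. Retnlg fell by 1.79 ± 0.38 and Padi4, which citrullinates histones in neutrophils, by 1.06 ± 0.17. With replicates 1 and 2 left out the median of the secondary granule list was -0.50 with 1 gene called. When 1 array was left out the calls ended in 5 of 7 fits for Chil3 (adjusted p up to 0.127; held without PR+/- Dnmt3a-/- replicate 3 or 4), in 4 for Retnlg (up to 0.132; without Dnmt3a-/- replicate 1 or 3 or PR+/- Dnmt3a-/- replicate 1 or 2) and without Dnmt3a-/- replicate 1 for Padi4 (0.0683). The mean of 6 neutrophil maturation markers lay between 8.24 and 9.07 with PR and between 9.39 and 10.77 without it. This mean includes the called fall of Retnlg.

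Ctsg, the primary granule protease cathepsin G, followed another order. It was at 7.96, 6.59 and 7.56 in PR+/- Dnmt3a-/- replicates 1, 3 and 4 and at 11.12 in replicate 2, against 11.95, 11.80 and 11.93 in Dnmt3a-/- GMP. In PR+/- GMP with Dnmt3a it was at 11.53 and 11.44, and in wild-type GMP at 11.30 to 11.77. The 3 low arrays were those with high Y-linked genes among the 4. The mean of the Y-linked genes was 6.73 and 6.87 in the PR+/- GMP arrays. In wild-type GMP replicates 1 to 4 it was 6.84, 7.04, 6.95 and 3.25, and Ctsg was at 11.30, 11.77, 11.65 and 11.62. The part of the Y-linked signal in Ctsg was not tested beyond the covariate. The labels give all 4 arrays as PR+/-, and whether they are alike in PR genotype was not tested. All 9 Ctsg probe sets were lower in PR+/- Dnmt3a-/- GMP on average, the smallest difference of a probe set being -2.24. The fall of 3.58 ± 0.72 passed (limma adjusted p = 0.0323) and was lost in 5 of 7 fits (up to 0.129), holding without PR+/- Dnmt3a-/- replicate 2 or 3. With the Y-linked covariate the change was -1.99 (limma adjusted p = 0.248). Within the groups the Y-linked level stood apart only in PR+/- Dnmt3a-/- replicate 2 (3.12) and wild-type replicate 4 (3.25). That adjusted value therefore rests mainly on these arrays. With only the 7 arrays compared the fall of Ctsg did not pass (limma adjusted p = 0.134). Another primary granule enzyme, Mpo, was at 12.62, 12.92, 12.82 and 12.72 against 12.97, 12.97 and 12.94 and did not pass (adjusted p = 0.49).

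**Figure D4:**
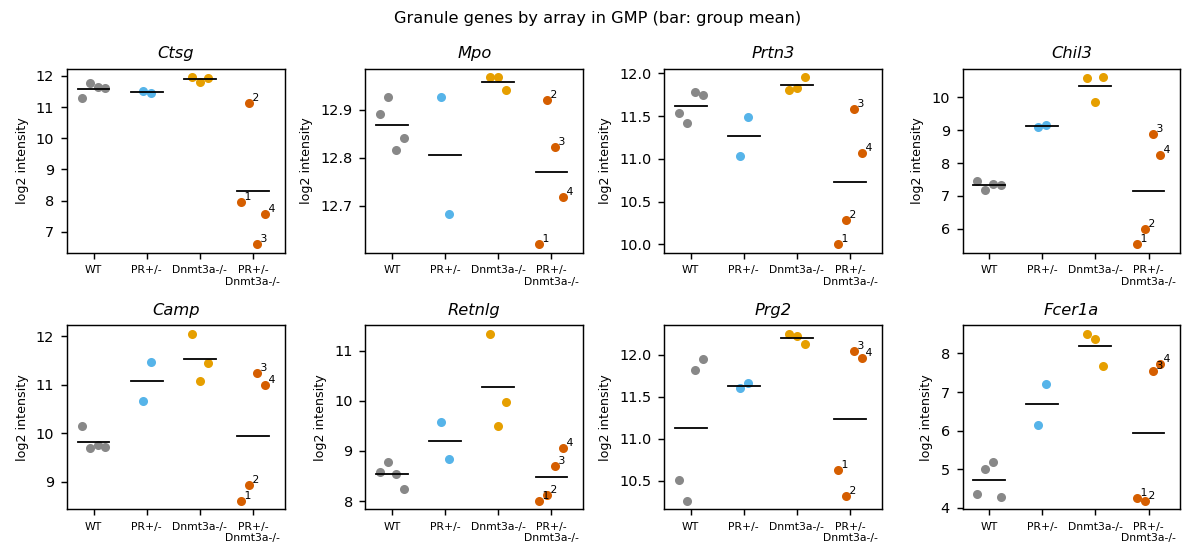
Log2 intensity (y axis) of 8 granule or effector genes by GMP array and genotype, with group means as bars and the replicate number beside each PR+/- Dnmt3a-/- array. Replicates 1 and 2 are the low arrays in Chil3, Camp, Prg2 and Fcer1a, while in Ctsg replicate 2 (11.12) is apart from replicates 1, 3 and 4 (6.59 to 7.96).

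Among 22 genes of the retinoid pathway and PML, 1 rose and none fell, with a median of 0.10. Rxra, the retinoid X receptor alpha that pairs with RARA, was at 6.24, 5.92, 5.64 and 5.92 with PR and at 4.58, 4.77 and 4.79 without it, and rose by 1.21 ± 0.19 (limma adjusted p = 0.00827). It rested on 8 of its 14 probe sets, which were higher by more than 1, the largest by 3.11, and 7 of the 14 were higher in all 6 GMP arrays with PR than in all 7 without. It did not pass when Dnmt3a-/- replicate 1 was left out (limma adjusted p = 0.0528). Neither partner gene of the fusion passed. Rara was at 6.13, 6.28, 5.75 and 6.06 against 5.50, 5.90 and 5.47 (0.43 ± 0.21, adjusted p = 0.36), and Pml at 7.15 to 7.54 against 7.49 to 7.52 (-0.12 ± 0.14, adjusted p = 0.72). Of the 12 Rara probe sets 4 were higher by more than 1, and the largest difference was 2.09. That probe set was at 9.13, 9.77, 7.23 and 8.36 with PR and at 6.94, 7.46 and 5.21 without it, so the groups overlapped. Whether any probe set reads the fusion transcript was not tested.

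Grb10, an imprinted gene for an adaptor of growth factor receptors, was the 1 called gene of 14 imprinted genes (median -0.003). It was at 7.13, 7.12, 6.89 and 7.27 with PR and at 5.62, 5.37 and 5.52 without it, and rose by 1.60 ± 0.13 (limma adjusted p = 1.11e-04), in 20 of its 21 probe sets. It held in all 7 fits without 1 array and with the Y-linked covariate. S100a4, a calcium-binding protein of motile cells, was at 8.67, 8.85, 7.83 and 8.68 against 10.11, 10.22 and 9.52 and fell by 1.44 ± 0.26 (adjusted p = 0.0166), the 1 called gene of 11 S100 and galectin genes. It was no longer called without Dnmt3a-/- replicate 1 or 2 (up to 0.0953). Among 23 stem and multipotent progenitor genes, Gata2 rose and Hlf, a transcription factor of stem cells, fell by 0.90 ± 0.19. Among 14 germline genes Tex15 fell by 0.96 ± 0.21. The calls of Hlf and Tex15 held in 1 of 7 fits, that without PR+/- Dnmt3a-/- replicate 3 (up to 0.197 and 0.218). With the Y-linked covariate the change of Hlf was -0.60 (limma adjusted p = 0.257).

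In the remaining lists no gene passed. They were the 26 cell cycle, 18 interferon-stimulated, 15 coagulation and fibrinolysis, 17 Hox, Meis and Pbx, 18 mitochondrial respiration, 10 glycolysis, 16 unfolded protein response, 14 DNA methylation machinery, 14 apoptosis and 12 haem synthesis genes, along with the B cell, eosinophil, ribosomal protein, ribosome biogenesis, chemokine and sort-gate marker lists. Their medians ran from -0.57 for 6 eosinophil genes to 0.07 for 26 cell cycle genes, leaving aside erythroid genes (0.10) and the immediate early and heat shock genes. With replicates 1 and 2 left out the eosinophil median turned to 0.25. The mean of the eosinophil genes was 6.22, 6.11, 7.59 and 7.87 in replicates 1 to 4 with PR and 7.54, 7.24 and 7.38 without it, and that of 2 measured eosinophil markers lay between 8.74 and 10.79 against 10.37 to 10.45. Mitochondrial respiration genes had a median of -0.27, with 1 of 18 above 0, and of -0.08 with replicates 1 and 2 left out and -0.15 with the handling covariate. Their mean was 9.07 and 9.15 in replicates 1 and 2, 9.60 and 9.61 in replicates 3 and 4, and 9.65 to 9.77 without PR. Perp was the 1 called gene of 17 p53 targets. The sort markers Kit (0.22 ± 0.13, limma adjusted p = 0.43), Cd34 (0.59 ± 0.22, 0.23) and Fcgr3 (-0.81 ± 0.28, 0.19) did not pass. Fcgr3 had its lower values in replicates 1 and 2 (8.78 and 8.60, against 9.71 and 9.58).

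**Figure D5:**
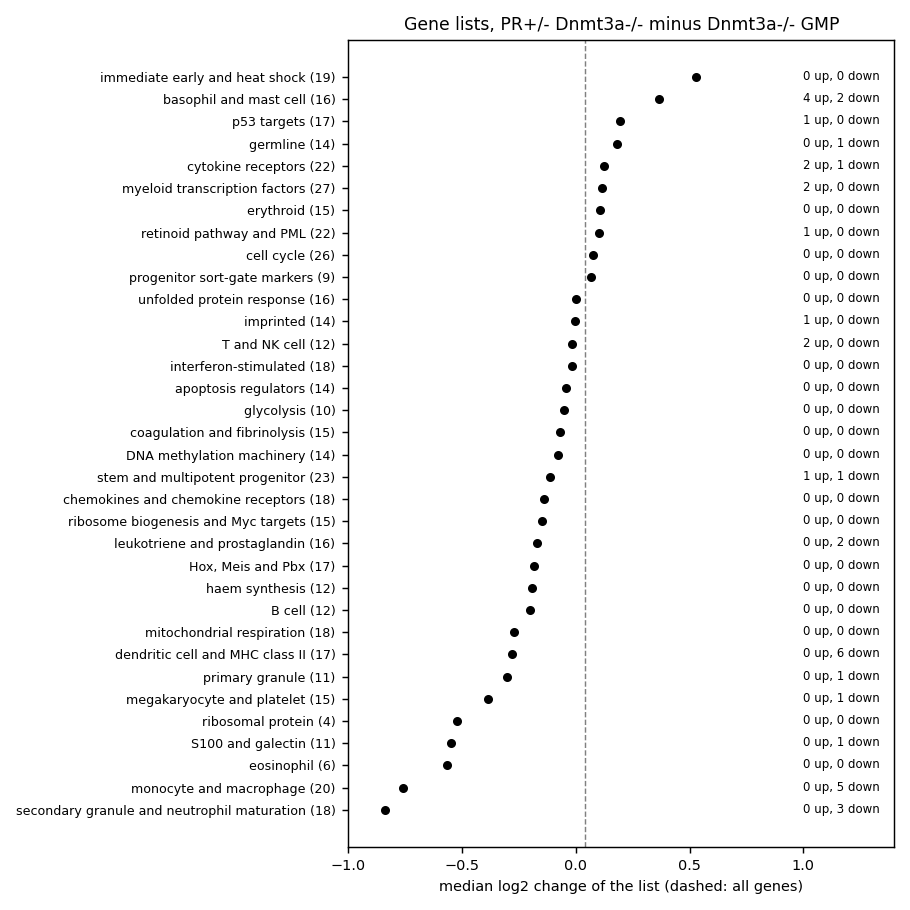
Median log2 change (x axis) of each gene list, with the number of measured genes in brackets and the number of genes called higher and lower at the right, and the median of all genes as a dashed line (0.04). The lowest medians are those of secondary granule (-0.84) and monocyte genes (-0.76), and basophil and mast cell genes (0.37) hold 4 of the called rises.

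Whether these changes differed from those with PR when Dnmt3a was present was tested as an interaction over the 13 GMP arrays. It was past the threshold in 5 of 15781 genes (0.0317%; limma, adjusted), with 2209 at an unadjusted p below 0.05. H2-Eb1, Prss34, Alox5 and S100a4 were among the 195 genes. H2-Eb1 fell by 3.09 without Dnmt3a and was 0.38 higher with PR when Dnmt3a was present, a difference of -3.47 ± 0.41 (adjusted p = 0.00769). Alox5, which fell by 0.93 without Dnmt3a, rose by 1.38 in PR+/- against wild-type GMP (adjusted p = 0.00287), so that the changes ran in opposite directions (-2.31 ± 0.26, adjusted p = 0.00769). S100a4 likewise fell by 1.44 without Dnmt3a and rose by 1.60 with it (-3.05 ± 0.39, adjusted p = 0.00976). Prss34 fell without Dnmt3a and changed by -0.87 with it (adjusted p = 0.0997), a difference of -2.91 ± 0.36 (adjusted p = 0.00843). In these 4 genes the group without PR stood higher when Dnmt3a was absent: Alox5 was at 7.33 to 7.72 in Dnmt3a-/- and at 5.73 to 6.00 in wild-type GMP, and S100a4 at 9.52 to 10.22 against 8.23 to 8.59. The fifth gene, Gdf3, a ligand of the TGF-beta family, rose by 1.63 with Dnmt3a and changed by -0.41 ± 0.18 without it (adjusted p = 0.308).

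With the Y-linked covariate none of the 5 passed this test, with adjusted p of 0.0502 to 0.0638 and differences between -1.91 and -3.50. At that setting 2691 genes had an unadjusted p below 0.05. The handling level, which also differed between wild-type arrays, was not added to the interaction fit. The difference between PR+/- and wild-type GMP was fitted without covariates. H2-Eb1 and Alox5 passed in all 13 fits without 1 array. Prss34 did not pass without PR+/- GMP replicate 2 (adjusted p = 0.0631), S100a4 not without PR+/- GMP replicate 1 (0.0921), and Gdf3 not without Dnmt3a-/- replicate 2 or 3 or either PR+/- GMP array (up to 0.109). In the fit of all 19 arrays Prss34 did not pass (0.0804).

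Of the 107 genes that rose without Dnmt3a, 63 (58.9%) were also called higher in PR+/- against wild-type GMP, where 345 genes (2.19%) were called higher, so these 63 were 18.3% of that list. Of the 88 that fell, 16 (18.2%) were also called lower there, where 139 genes (0.881%) were called lower, or 11.5% of that list, and 2 were called higher, Alox5 and S100a4. Both differences with PR use separate arrays but cross the same 2 array sets. They are also contrasts of 1 fit with 1 estimate of the spread of each gene, so the calls are not independent. Rises common to both include Nt5e (4.38 with Dnmt3a), Cdh1 (4.54), Thy1 (4.89), Cpa3 (3.70) and Grb10 (0.93), and common falls include Ly86 (-2.61), Ctss (-1.46) and Csf1r (-1.66). The median change with PR when Dnmt3a was present was 0.95 for the 107 genes, -0.55 for the 88 and 0.002 for all genes. On the step from wild-type CMP to GMP, measured in 7 wild-type arrays, the genes that rose had a median difference of -0.08 and those that fell of 0.09, beside 0.04 for all genes. Of the rises, 4 were called higher and 13 lower in wild-type GMP than in CMP, and of the falls 5 and 9, beside 98 (0.621%) called higher and 160 (1.01%) called lower of all 15781 genes.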

How the data were processed

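RNA was measured on Affymetrix mouse exon arrays. The authors deposited linear intensities for 194293 probe sets on 19 arrays, already on a common scale, with array medians between 53.0 and 56.8 (as deposited). Per the submitters' processing notes, RMA and Partek were used, with build mm9. No filter was applied to dim genes, and the files hold no detection measure.

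The log2 of each intensity was taken and averaged over the probe sets that carry 1 gene symbol alone (179496 probe sets, 15781 genes, median of 9 per gene). Of the annotated symbols, 2039 were updated through RefSeq synonyms. Groups were compared with limma 3.58.1 in R 4.3.3 (lmFit, eBayes, two-sided) in 1 fit of the 13 GMP arrays with 4 group means, adjusted by Benjamini-Hochberg over all genes, with a threshold of 0.05. The interaction is a contrast of the same fit. The script was tested on simulated data. The number of arrays limits the precision.

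Named genes were the 12 largest rises and 12 largest falls among called genes with separated groups, at least 3 probe sets and a level of at least 5, up to 4 called genes of each of 35 lists in order of p (or 2 genes where none passed), Dnmt3a, Pml, Rara and Ctsg, and up to 6 interaction genes. The lists and members were chosen with earlier results of these data known. Marker genes of cell types are given besides, as are further called genes of the lists (Il4, H2-Ab1, H2-DMa and Clec4a1). Arhgef28 is given as a gene also called with the Y-linked covariate. Other exceptions are named as chosen after their values were seen. Background was taken as the median level of 14 germline genes. A change towards a group mean below that level is written "at least". Alternatives were other sets of arrays, gene summaries, scalings, filters, weights, priors, covariates and leaving out arrays.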

Additional observations from a re-analysis of the deposited data

Results flagged for a closer look

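In 4 of the genes named in the report the change with PR differed without and with Dnmt3a, by a limma interaction test (adjusted p below 0.05). The difference, as the change without Dnmt3a minus the change with it, was -3.47 for H2-Eb1, -3.05 for S100a4, -2.91 for Prss34 and -2.31 for Alox5 on the log2 scale. In Cd300a, PR+/- Dnmt3a-/- GMP replicate 3 (5.92) stood apart from the other 3 arrays (4.96 to 5.06) by Dixon's criterion. It was the 1 flag among 83 genes examined in this group of 4 arrays, and chance alone flags about 1 group in 20.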

How the results depend on the processing

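The count of 195 called genes fell to 74 with only the 7 arrays compared, to 97 with the median of probe sets, to 50 without PR+/- Dnmt3a-/- replicates 1 and 2, to 15 when a minimum of 1.5-fold was tested and to 11 with the Y-linked covariate. It rose to 315 with all 19 arrays and to 935 with array weights. Without 1 array it lay between 45 and 339. Under brighter probe sets, a filter on dim genes, quantile normalization, median centring, the handling covariate and another prior it stayed between 158 and 244. The count of 5 interaction genes was 25 with all 19 arrays, 40 with array weights, 8 with the median of probe sets, 0 with the Y-linked covariate (limma; 2691 genes at an unadjusted p below 0.05) and 4 to 14 without 1 array. Beyond these constructions the cause was not tested. No value of the 44 called genes among the 83 named ones changed direction in 876 recomputed values, and 227 of them were no longer past the threshold, among them 38 of the 44 genes with the Y-linked covariate, 22 without PR+/- Dnmt3a-/- replicates 1 and 2, 14 with only the 7 arrays and 13 with the median of probe sets. No paired analysis was possible because the labels give Dnmt3a-/- GMP and PR+/- Dnmt3a-/- GMP no shared replicate numbers.

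Of 699 recomputed list medians, 68 moved by more than the spread between replicates. Y-linked genes separate the compared groups in all but 1 array, array set moves with PR genotype, the groups hold 2 to 4 arrays, and dim genes near background understate their change.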
